A study of Arabidopsis thaliana with 8 samples.

Results

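The JAZ genes of Arabidopsis thaliana were examined in ChIP-seq maps of ARR12, a transcription factor of the B-type response regulators that carry out the last step of cytokinin signalling. JAZ1 to JAZ10 were taken by locus identifier, 10 of 27444 nuclear protein-coding genes, and every called summit within 3000 bp of each gene was collected. Below, the JAZ genes means these 10. They are not the whole family: JAZ11 and JAZ12 were counted with the other jasmonate pathway genes. The set was chosen by results of these libraries, the number and scores of ARR12-GFP summits beside its members. The counts below therefore describe the genes, and no test was run on them. The ARR12-GFP plants carried the fusion in the Col-0 ecotype, and the control, whose genotype label reads control, is named Col-0 in the design text and GFP in the sample titles. It is called Col-0 here. Which promoter drives the fusion is not stated in the labels. Seedlings of both genotypes were stratified for 5 days and then grown at 22 °C for 3 days, root meristems were fixed, and chromatin was precipitated with the same anti-GFP antibody in 2 biological replicates per genotype. The input libraries of the study were not analysed here as separate samples. Meristem tissue holds many cell types, and a summit does not tell in which of them the fusion was bound.

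JAZ proteins repress the response to jasmonate, a hormone of wounding, defence and growth arrest. They bind MYC transcription factors and recruit corepressors through the adaptor NINJA. The active hormone, a conjugate of jasmonic acid with isoleucine, joins JAZ proteins to the receptor COI1, an F-box protein, and the repressors are then degraded. MYC factors in turn activate many JAZ genes, so the repressors are themselves early jasmonate response genes.

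The ARR12-GFP libraries held 8175 and 5492 summits in replicates 1 and 2, against 428 and 301 in the Col-0 libraries. Of these, 8137 and 5492 of ARR12-GFP and 199 and 251 of Col-0 were nuclear. Only nuclear summits could lie near a JAZ gene or remove a site. A summit is the highest point of a called peak, and its score is the authors' own −log10 of a p-value or q-value, used here only to order summits within a list. The percentile of a summit is its place by score in its own list, with 100 as the highest. Read depth per library is unknown from these lists, and summit numbers also depend on it.

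Each of JAZ1 to JAZ10 had ARR12-GFP summits from both libraries within 3000 bp, and none had a Col-0 summit there. JAZ11 and JAZ12, outside this set, had no ARR12-GFP summit within that distance. Replicates 1 and 2 of ARR12-GFP placed 20 and 22 summits around the 10 genes, while both Col-0 libraries placed 0. An exact permutation test of 2 against 2 libraries cannot go below p = 0.333, so the genotypes are compared by these values alone. Among all nuclear protein-coding genes, 38.8% had a summit of ARR12-GFP replicate 1 in the same window, 27.5% had one of replicate 2, and 24.5% had both. The Col-0 count is near its background, since only 1.12% of all coding genes had a summit of either Col-0 library in the window. The nearest Col-0 summit lay 8091 bp away at JAZ5 and farther at the other 9 genes, up to 815423 bp at JAZ7.

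Summits of the ARR12-GFP libraries within 200 bp of each other were joined into reproducible sites, and sites within 200 bp of a Col-0 summit were removed. By this measure 8 of the 10 JAZ genes had a site within 3000 bp, 13 sites in all, against 20.4% of all coding genes. The share was 21.3% among coding genes between 923 and 3338 bp long, the length range of the JAZ genes. JAZ7 and JAZ10 had 3 sites each, and JAZ2 had 2. At least 3 sites were found at 0.907% of coding genes. JAZ1 and JAZ8 had no reproducible site although both libraries held summits beside them. Within 1500 bp a site was present at 8 JAZ genes, against 14% of coding genes, and within 500 bp at 7, against 8.5%.

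**Figure D1:**
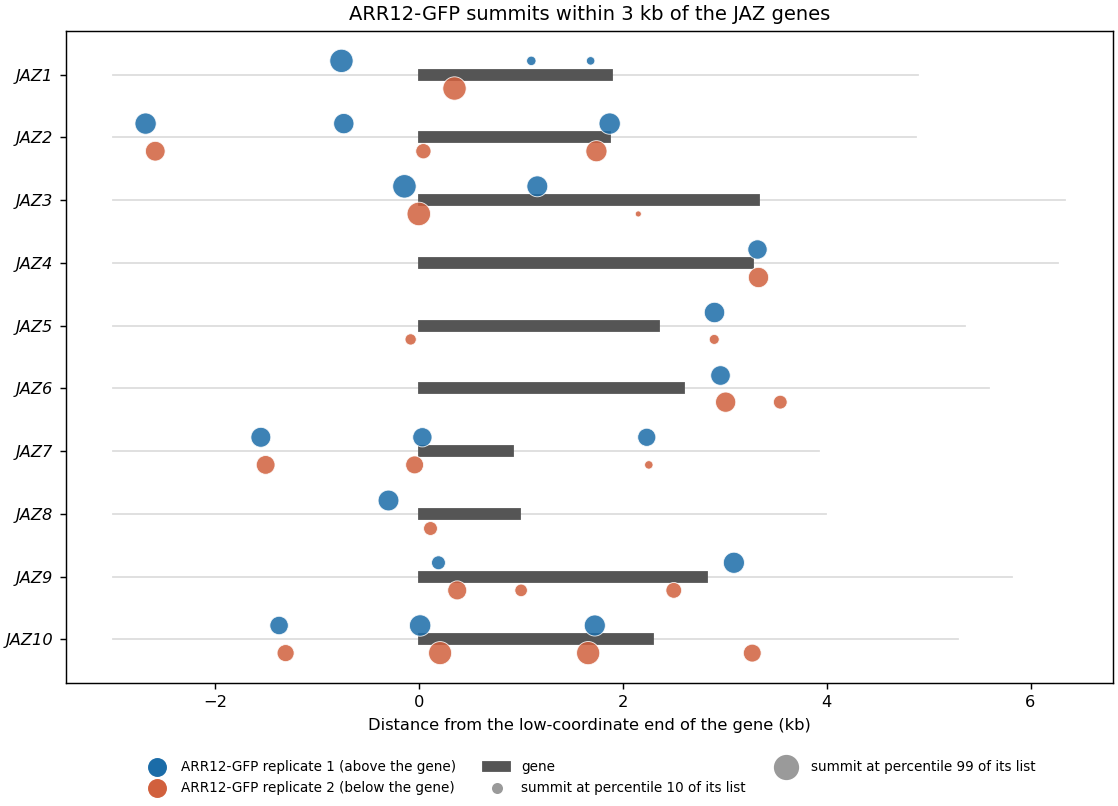
Positions of ARR12-GFP summits along the 10 JAZ genes, as the distance in kb from the end of the gene with the lower coordinate, with replicate 1 above and replicate 2 below each gene and larger circles for higher percentiles. The grey line spans the searched 3 kb on either side. The summits of both libraries coincide beside JAZ4, JAZ6 and JAZ7, and the large circles at JAZ1 stand apart.

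JAZ3 (AT3G17860), JAZ4 (AT1G48500) and JAZ9 (AT1G70700) form a branch of the family and also carry the names TIFY6B, TIFY6A and TIFY7. JAZ3, also called JAI3 after the jasmonate-insensitive mutant, carried the highest-scoring site of all 10 genes. Its summits lay at positions 6119563 and 6119704 of chromosome 3 in replicates 1 and 2, 144 and 3 bp outside the gene, with scores of 75.9 and 62.4. They ranked 71st and 16th in their lists, so both libraries put this site among their strongest. Further summits inside JAZ3 scored 18.8 in replicate 1 and 2.78 in replicate 2, but they lay 991 bp apart and did not form a site. JAZ4 had exactly 1 summit per library, at 17934710 and 17934720 of chromosome 1, with scores of 13.8 and 11.1. This site lay 53 bp outside JAZ4 and 31 bp from the neighbouring gene AT1G48510, in the gap of 84 bp between the genes. JAZ9 held a site inside the gene, with summits 184 bp apart scoring 7.13 and 9.22. The best replicate 1 summit at JAZ9 scored 19.8, lay 268 bp outside the gene, and had its nearest replicate 2 summit 590 bp away. That replicate 2 summit scored 6.70, and another inside JAZ9 scored 5.23. Of this branch, JAZ3 had summits in the top 10% of both lists and its relatives had none there.

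JAZ1 (AT1G19180), JAZ2 (AT1G74950), JAZ5 (AT1G17380) and JAZ6 (AT1G72450) also carry the names TIFY10A, TIFY10B, TIFY11A and TIFY11B. JAZ1, a repressor degraded through COI1, had a summit of score 57.7 in replicate 1 and one of 38.0 in replicate 2. They ranked 169th and 89th, at percentiles 97.9 and 98.4, so JAZ1 came next to JAZ3 among the JAZ genes in each list. Their positions did not coincide. The replicate 1 summit lay at 6621015 of chromosome 1, 762 bp outside JAZ1 and inside the long noncoding RNA gene AT1G05473. That of replicate 2 lay 1104 bp away at 6622119, inside JAZ1 and 1048 bp from AT1G05473. Few summits this high lacked any summit of the other list nearby. Of the 169 replicate 1 summits scoring at least as high, 14 had no replicate 2 summit within 200 bp. None lay within 1000 bp for 2 of them. Of the 89 such replicate 2 summits the counts without a replicate 1 summit were 13 and 2. The JAZ1 summits themselves are included, and a partner of any score counts. The JAZ1 summit of replicate 1 is thus among its 2. That of replicate 2 is not, since the replicate 1 summit of score 4.88 lay 759 bp from it. Whether both JAZ1 summits belong to a single broad region was not tested, because peak widths were not analysed here. Weaker replicate 1 summits inside JAZ1 scored 4.88 and 4.48, and replicate 2 had no other summit in the window.

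JAZ2 had 2 sites. The site inside the gene, at 28150379 of chromosome 1 and 67 bp from the gene's end, had scores of 21.0 and 13.3. The other lay 2637 bp from JAZ2 with scores of 20.7 and 10.1, and was only 41 bp from AT1G74940. JAZ2 also had summits of 16.5 in replicate 1 and 6.41 in replicate 2 near the end with the lower coordinate, 781 bp apart. JAZ5 had a closely placed site, with summits at 5958045 and 5958051 of chromosome 1, 537 bp outside the gene. Its scores of 17.0 and 4.32 stood at percentiles 73.7 and 12.7, so it stood low in the replicate 2 list. A further replicate 2 summit of 4.75, on the other side of JAZ5, had its nearest replicate 1 summit 2973 bp away. JAZ6 had a site 387 bp outside the gene with scores of 14.3 and 11.0, at percentiles 67.1 and 72.1. Both summits of the JAZ6 site lay inside AT1G09307, an annotated long noncoding RNA gene beginning 149 bp from JAZ6. Replicate 2 had another summit of 5.68 at 950 bp from JAZ6.

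JAZ7 (AT2G34600) and JAZ8 (AT1G30135), also named TIFY5B and TIFY5A, are the shortest of the 10 genes at 923 and 990 bp. JAZ8 is known as a stable repressor that lacks the canonical degradation signal. JAZ7 had 3 sites, and at each of them the summits of both libraries lay within 76 bp. The middle site, 6 bp from the gene, scored 13.6 and 8.16 in replicates 1 and 2. The flanking sites were 1530 and 1322 bp away and were nearer to the neighbouring genes AT2G34590 and AT2G34610, at 357 and 118 bp. The site at 1530 bp scored 15.3 and 8.99. The site at 1322 bp scored 11.4 and 3.84, and stood at percentile 7.38 in the replicate 2 list. JAZ8 had 1 summit per library, at 10596042 and 10596459 of chromosome 1, with scores of 18.5 and 5.72. These lay 417 bp apart on either side of the gene's end, so JAZ8 formed a site when summits were matched within 500 bp.

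JAZ10 (AT5G13220), also called JAS1 and known for splice forms that resist degradation, had the most summits, 3 in replicate 1 and 4 in replicate 2. A site at 4218894 of chromosome 5, 108 bp inside the gene's end with the lower coordinate, had scores of 21.7 and 26.0. A second site, 600 bp inside the gene at 4220477, had scores of 19.7 and 29.3. In replicate 2 these summits ranked 245th and 178th and lay in the top 10% of the list, while in replicate 1 they ranked 1505th and 1729th and did not. The third site lay 1342 bp outside the gene with scores of 12.0 and 7.49. Replicate 2 alone had a summit of 8.11 on the opposite side of JAZ10, 978 bp away. Summits of the first site lay inside or 136 bp from the noncoding RNA gene AT5G02045, which overlaps the end of JAZ10.

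Set against each other by their best summit in each library, wherever in the window it lay, the JAZ genes kept a common order at the top of both lists. The mean percentile of the best summits was 99.4 for JAZ3, 98.2 for JAZ1, 89.2 for JAZ10 and 80.1 for JAZ2. The 2 values of each of these 4 genes did not overlap between neighbours in that order. The margin was narrow in replicate 1, where JAZ10, JAZ2 and JAZ9 stood at 81.6, 80.8 and 79.0. JAZ9, JAZ6, JAZ4 and JAZ7 followed between 71.0 and 65.5 with values that overlapped. For JAZ9, JAZ10, JAZ1, JAZ8 and JAZ5 these means combine summits that lay 2715, 1649, 1104, 417 and 2973 bp apart, and the site inside JAZ9 stood only at percentiles 30.8 and 62.9. JAZ8 and JAZ5 came last, at 53.6 and 45.9, because replicate 2 placed their best summits at percentiles 30.6 and 18.1. In replicate 1 the median over the 10 genes was 77.8, against 59.0 over the 10639 coding genes with a summit in the window. In replicate 2 the medians were 72.3 and 57.9, the lower over 7560 coding genes. The JAZ genes had a median of 2 summits per library in the window, against 1 for coding genes with any, and the best of more summits tends to stand higher. A summit in the top 10% of each list was present at JAZ1 and JAZ3, 2 of 10 genes, against 2.59% of coding genes.

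**Figure D2:**
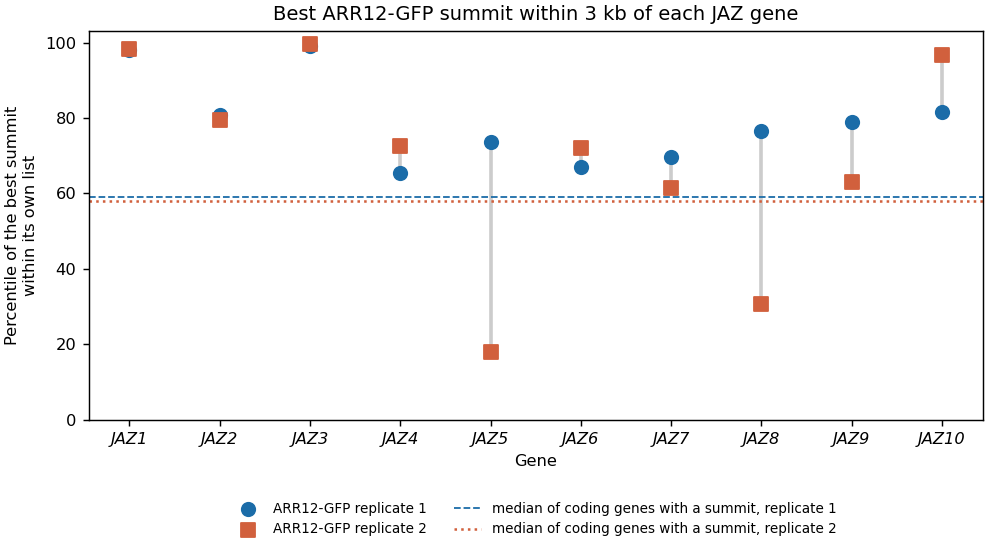
Percentile, within its own list, of the best ARR12-GFP summit within 3 kb of each JAZ gene, with circles for replicate 1, squares for replicate 2 and lines for the median of all coding genes that had a summit. JAZ1 and JAZ3 sit at the top in both replicates, and JAZ5 and JAZ8 have the widest gaps, with replicate 2 at 18.1 and 30.6.

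Summits often lay inside the JAZ genes. In replicate 1, 8 of 20 summits (40%) were inside the JAZ gene, against 14.6% of all pairs of a coding gene and a summit in its window. In replicate 2, 10 of 22 summits (45.5%) were inside the JAZ gene, against 18.4% of all such pairs. Not all of these summits belonged to a site, and some were weak, down to percentile 0.783 for a replicate 2 summit inside JAZ3. A longer gene fills more of its window, and no share inside the gene was compared among genes of similar length. Of the 13 reproducible sites 4 (30.8%) lay inside the gene, against 14.6% of all pairs of a coding gene and a site. These were at JAZ2, JAZ9 and JAZ10, so 3 JAZ genes had a site inside the gene, against 3.52% of coding genes. With summits matched within 100 bp, 1 JAZ gene had a site inside it, against 2.61% of coding genes. Leaving out replicate 1 of ARR12-GFP gave 6 JAZ genes with a summit inside, against 6.27% of coding genes. Leaving out replicate 2 also gave 6, against 7.68% of coding genes. The alternatives for this count were added after the data were seen. The other 9 sites lay from 6 to 2637 bp outside. Strand is missing from the gene table used, so promoters are not told apart from 3′ sides.

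Many of the sites were shared with neighbours. A different coding gene was nearest to 5 of the 13 sites, namely AT1G74940 beside JAZ2, AT1G48510 beside JAZ4, AT2G34590 and AT2G34610 beside JAZ7, and AT5G13210 beside JAZ10. Only the JAZ3 site lay in the window of no other coding gene, and the others lay in the windows of 2 to 4 coding genes. Counting each site for its nearest coding gene alone left 7 JAZ genes with a site, against 10.3% of coding genes, and JAZ4 was the gene lost. The ARR12-GFP libraries placed 5 and 6 further summits in the next 3000 bp beyond that limit. The farthest summits inside it were those of JAZ2 at 2684 and 2589 bp, with scores of 20.7 and 10.1. The nearest outside it were a coinciding pair at 3531 and 3539 bp from JAZ9, with scores of 31.3 and 15.9, each higher than the score of the site inside JAZ9 in the same list.

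The remaining jasmonate pathway was then examined in a list of 36 genes of hormone synthesis, perception and turnover. This list, too, was chosen with earlier results of these data known, so its counts are no independent support. In this list 25 genes (69.4%) had a reproducible site within 3000 bp, against 20.4% of all coding genes, and 18 had one within 500 bp, against 8.5%. Some of these genes share sites: a site at 9406739 of chromosome 3 counts for AOC1, AOC2 and AOC3, and 2 more count for both AOC2 and AOC3. A Col-0 summit lay in the window of 1 of the 36, MYC2, against 1.12% of all coding genes.

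**Figure D3:**
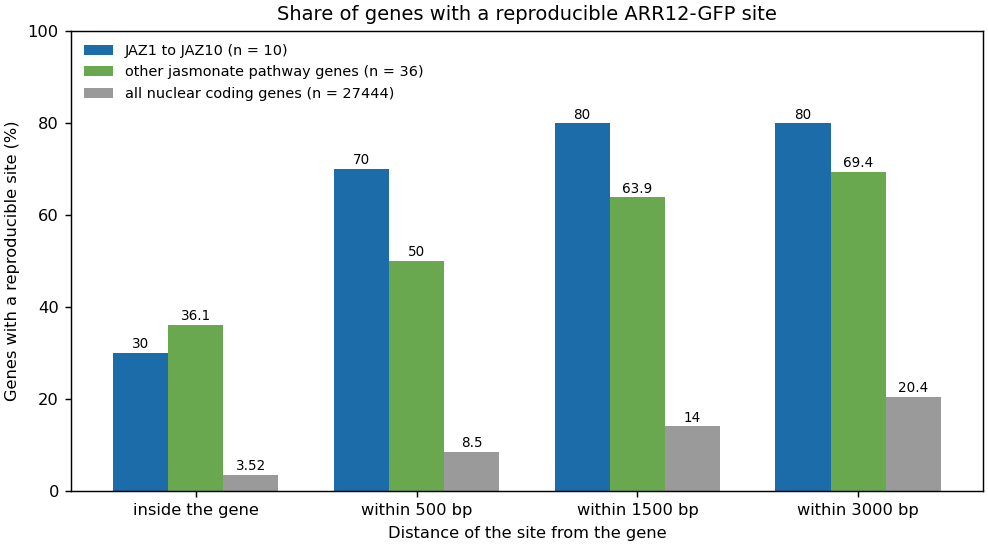
Percent of genes with a reproducible ARR12-GFP site inside the gene or within 500, 1500 and 3000 bp, for the 10 JAZ genes, 36 other jasmonate pathway genes and 27444 nuclear coding genes. JAZ genes and pathway genes stand at 80% and 69.4% within 3000 bp, against 20.4% of all coding genes, and at 30% and 36.1% inside the gene, against 3.52%.

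Of the 15 synthesis genes 13 had a site within 3000 bp, against 20.4% of all coding genes. The exceptions were LOX2, a lipoxygenase gene, and JMT, which encodes a jasmonate methyltransferase. LOX4, a lipoxygenase gene, held a site at 27310374 of chromosome 1 with scores of 46.9 and 31.8. AOS, whose enzyme opens the jasmonate branch of lipid oxidation, held a site at 17099453 of chromosome 5 with scores of 24.1 and 22.9. LOX6 had a site 1463 bp away scoring 51.1 and 13.8, which was nearer to another gene, URE. Sites were also present at DAD1, LOX3, AOC1 to AOC4, OPR3, OPCL1, ACX1 and JAR1, which cover the steps from lipid release to the isoleucine conjugate. AOC1 to AOC4 encode the allene oxide cyclase step, and AOC1 counted only through a site inside its neighbour AOC2.

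Genes entered in the list for turnover of the hormone had a site in 7 of 9 cases, against 20.4% of all coding genes. ILL6, an amidohydrolase gene, held a site at 16837231 of chromosome 1 with scores of 37.3 and 28.7. CYP94B1, a cytochrome P450 gene of a family that oxidises the isoleucine conjugate, had sites 69 and 1358 bp away, the farther with scores of 32.0 and 18.9. AT5G05600, which has no symbol in the gene table, had 3 sites in its window. Its highest, 1521 bp away at 1670549 of chromosome 5, scored 63.5 and 44.1 and was nearer to AT5G05598. IAR3, JRG21, AT3G11180 and AT2G38240 also had sites, and CYP94B3 and CYP94C1 had none.

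Perception and repression genes had a site in 5 of 12 cases, against 20.4% of all coding genes. MYC2, the transcription factor gene best known for driving jasmonate responses, had a site at 11801720 of chromosome 1, 313 bp from the gene, which scored 38.9 and 51.0. A farther site, 2901 bp away at 11804308, scored 83.5 and 51.7, but a Col-0 replicate 2 summit of score 4.81 lay 235 bp from it. TPL, the corepressor gene, had a site at 480 bp with scores of 29.2 and 29.2. MYC4, a relative of MYC2, had a site 2887 bp away scoring 46.3 and 21.3, which lay nearer to PYR1, an abscisic acid receptor gene. JAM1, listed as AIB, and AT3G22275 completed the 5. The next genes are named here after their values were seen. At the receptor gene COI1 replicate 1 had a summit at percentile 8.42 and the nearest summit of replicate 2 lay 4775 bp away. JAZ11 and JAZ12 had no ARR12-GFP summit within 3000 bp, with the nearest at 10278 and 5111 bp. AT3G22275, which has no symbol in the gene table, had a site at 524 bp, which scored 37.1 and 12.9.

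**Figure D4:**
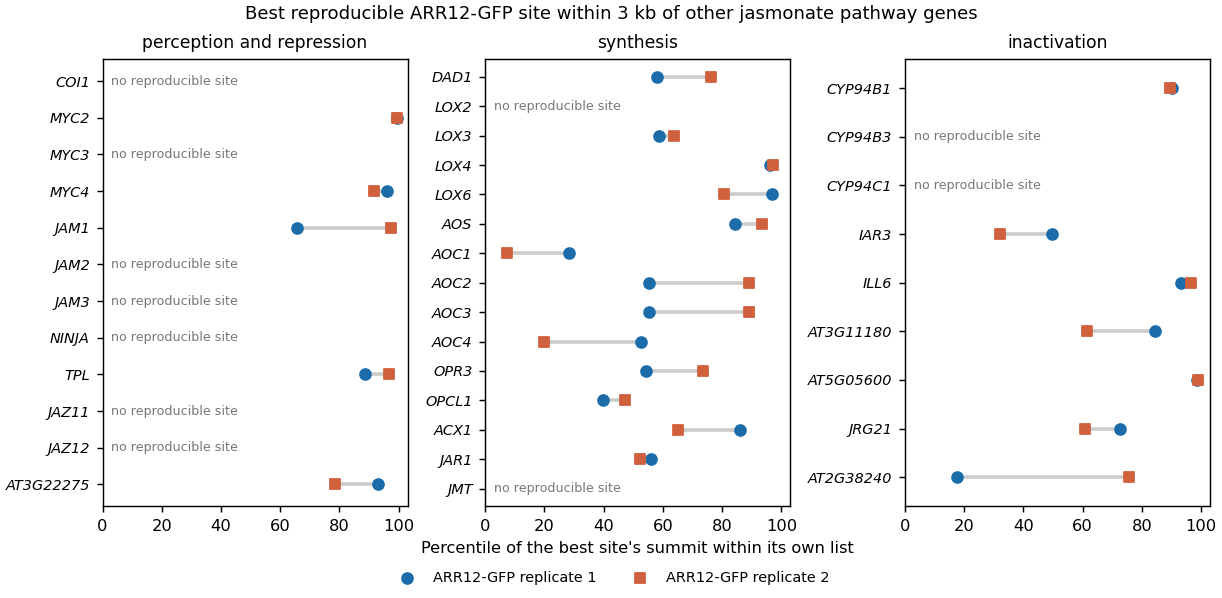
Percentile, within its own list, of the summits at the best reproducible site within 3 kb of 36 other jasmonate pathway genes, in panels by role, with circles for ARR12-GFP replicate 1 and squares for replicate 2. Only LOX2 and JMT lack a site among the 15 synthesis genes, and 7 of 12 perception and repression genes lack one.

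The comparison rests on 2 libraries per genotype and on lists of called peaks, so a gene without a site is one where no coinciding summits were called at the depth of these libraries. No expression was measured in these samples, and a site says nothing of regulation.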

How the data were processed

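Anti-GFP ChIP-seq summits of 2 ARR12-GFP and 2 Col-0 libraries were used, grouped by sample title. The submitters' processing notes list MACS2 2.1.0, Bowtie 1.1.1, FastQC 0.11.2 and SAMtools, and the build TAIR10. Peak calling settings are not given in the sources used. The authors deposited 1 summit per peak, called per library, and its score, the −log10 of either a p-value or a q-value. Depth is unknown from the lists.

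Genes came from a RefSeq table of assembly TAIR10.1 without strand, exons or sequence. All 52 locus identifiers used matched. The table's fit to the TAIR10 summits was checked by moving the summits of ARR12-GFP replicate 1 in steps of 100 bp: the share inside coding genes was lowest without a move, at 29.2%. Gene coordinates are not printed.

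Nuclear summits of both ARR12-GFP libraries were chained into groups where neighbours lay within 200 bp, a site needed a summit of each library, and sites within 200 bp of a Col-0 summit were removed, leaving 3503 sites. A site's position is the midpoint of the best summit of each library. The JAZ genes and the jasmonate lists were chosen with earlier results of these data known. The text names all 10 JAZ genes, other genes nearest to their sites, and list genes with a site, with values for up to 3 per role by mean percentile. Sequence motifs were not analysed here. The code was tested on simulated lists in 5 runs. Simulated positions were set far apart, so chains of several close summits were not tried. Python 3.11.15, NumPy 2.4.6, pandas 2.3.3 and matplotlib 3.10.9 were used.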

Additional observations from a re-analysis of the deposited data

How the results depend on the processing

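The count of JAZ genes with a reproducible site, 8 of 10, ranged from 6 to 10 over 12 of 13 alternatives and was 3 when only the top 25% of each list were used, with 4 sites in place of 13. Several of these outcomes were fixed in advance. Settings on Col-0 summits could not change the count, since the nearest lay 8091 bp from a JAZ gene. Leaving out an ARR12-GFP replicate could only give 10, since both libraries had summits at all 10 genes. The settings that could lower the count gave 6 to 9, apart from the 3. At that setting 10 of the 36 pathway genes had a site, against 5.88% of all coding genes. The 3 JAZ genes were JAZ2, JAZ3 and JAZ10. Over the 12 other alternatives the share of all coding genes ranged from 8.5% with 500 bp searched to 38.4% without ARR12-GFP replicate 2. Matching summits within 100 bp took the site from JAZ3 and JAZ9, whose summits lie 141 and 184 bp apart, and matching within 500 bp added JAZ8. The number of JAZ sites was 8 with 500 bp searched and 8 with each site counted for its nearest coding gene alone. Without an ARR12-GFP replicate, summits of the remaining library stand in place of sites, and all 10 JAZ genes then counted. The share of all coding genes was then 27.2% without replicate 1 and 38.4% without replicate 2. The JAZ genes had 22 positions without replicate 1 and 20 without replicate 2. Leaving out either Col-0 library left 8 JAZ genes and 13 sites. Removing sites within 1000 bp of a Col-0 summit changed no JAZ count. Neither setting could change one, as no Col-0 summit lay that near to a JAZ site. No paired analysis was possible because the counts come from no test. Set side by side by replicate number, ARR12-GFP had 20 summits and Col-0 had 0 around the JAZ genes in replicate 1, and 22 and 0 in replicate 2.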

Other observations

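Of 6 TIFY genes outside the JAZ family, 1 had a reproducible ARR12-GFP site within 3000 bp, against 20.4% of all coding genes. It was PPD2, a PEAPOD gene that limits leaf growth. The PPD2 site lay inside the gene at 8435075 of chromosome 4 with scores of 11.3 and 9.54. ZIM and ZML1 had summits in ARR12-GFP replicate 1 alone, and PPD1, TIFY8 and ZML2 had none of either ARR12-GFP library within 3000 bp.

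Among the pathway and TIFY genes with a site, those whose best site stood nearest to that of JAZ3 in both within-list percentiles were MYC2, AT5G05600 and LOX4, at distances of 0.406, 0.909 and 3.74 percentile points over the 2 ARR12-GFP libraries. For MYC2 this was the site 2901 bp away with a Col-0 summit 235 bp from it.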
